A study of Mus musculus with 6 samples.

Results

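The 10 genes described here encode the urea cycle of the liver and the enzymes that feed nitrogen into it. They were taken by symbol: Cps1, Otc, Ass1, Asl and Arg1, the 5 enzymes of the cycle, Nags and Slc25a15, which serve it in the mitochondrion, and Gls2, Hal and Sds, which release ammonia from glutamine, histidine and serine. All 10 were found among the 18444 genes listed in the 6 libraries. The rule used symbols alone, and the set was proposed with earlier results of these data known. At 850 reads or more in every library, all 10 passed the read minimum used below.

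The urea cycle turns ammonia, which is toxic, into urea for excretion. Its first steps run in the mitochondrial matrix, its later steps in the cytosol, and ornithine and citrulline are carried across the inner membrane between them. In the liver lobule these enzymes are richest in the periportal hepatocytes, near the incoming blood, while glutamine synthetase in the pericentral hepatocytes takes up the ammonia that escapes them. Transcripts of the cycle are known to respond to dietary protein, fasting, glucagon and glucocorticoids.

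Liver RNA of male C57BL/6 mice (C57BL/6J in the study's methods), with ages given as 6 to 8 weeks, was sequenced in 6 libraries, 1 for each of 6 groups, with an 8 h fast before the mice were killed. In the diet model, the SD library came from a control on a standard diet (chow in the labels), HFD from mice fed a high fat diet for 16 weeks, and HFD+JT003 from HFD mice that also received JT003, an agonist of both adiponectin receptors, at 500 ug/kg a day for 4 weeks. In the CCl4 model, the Oil library came from mice injected with corn oil for 6 weeks, CCl4 from mice injected with the hepatotoxin carbon tetrachloride in corn oil for 6 weeks, and CCl4+JT003 from CCl4 mice that received JT003 at the same dose for 3 weeks. The groups held 6 mice each, but how many of them went into a library is not given in the sources used here. The labels call the HFD liver NASH, a name that the study's methods give to HFD with a diet lacking methionine and choline. The labels name no such diet for these samples. The study's results also use NASH for mice fed HFD for 16 weeks, and describe the sequenced livers as those of HFD-fed mice. By the study's description the protein shares of both diets were similar.

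The libraries held between 19374236 and 20184557 expected counts. None of 13 hepatocyte markers was at 0 reads in any library, and their summed level lay between 67723 and 93673 FPKM (reads scaled to transcript length and library size). With 1 library per group there is no replicate check and no test of a difference between conditions. Each log2 ratio below compares the reads of a pair of libraries after TMM scaling, its 95% interval covers counting error only, and a gene was called where the ratio reached 1.5-fold and the interval excluded no change. In bulk liver, fewer cells of a type and less RNA per cell cannot be told apart.

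The 10 genes spanned a wide range of levels. Ass1, argininosuccinate synthase, was the highest in all 6 libraries, at 836.72 to 2439.56 FPKM, and Arg1, arginase, followed it in all 6. Nags, which makes the N-acetylglutamate that Cps1 needs as its activator, was the lowest in all 6, at 20.22 to 37.9 FPKM. Within a library, Ass1 exceeded Nags by 35.3-fold (HFD+JT003) to 80.9-fold (SD) in FPKM. The order of the middle genes was not fixed: Otc was number 9 of the 10 in SD and number 4 in HFD. Together the 10 genes made up 4074.1 FPKM in SD, 2558.1 in HFD and 2219.9 in HFD+JT003. In the CCl4 model the same sum was 5474.3 FPKM in Oil, 4525.8 in CCl4 and 4892.6 in CCl4+JT003. The sum was thus lowest in the 2 livers of mice fed HFD.

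**Figure D1:**
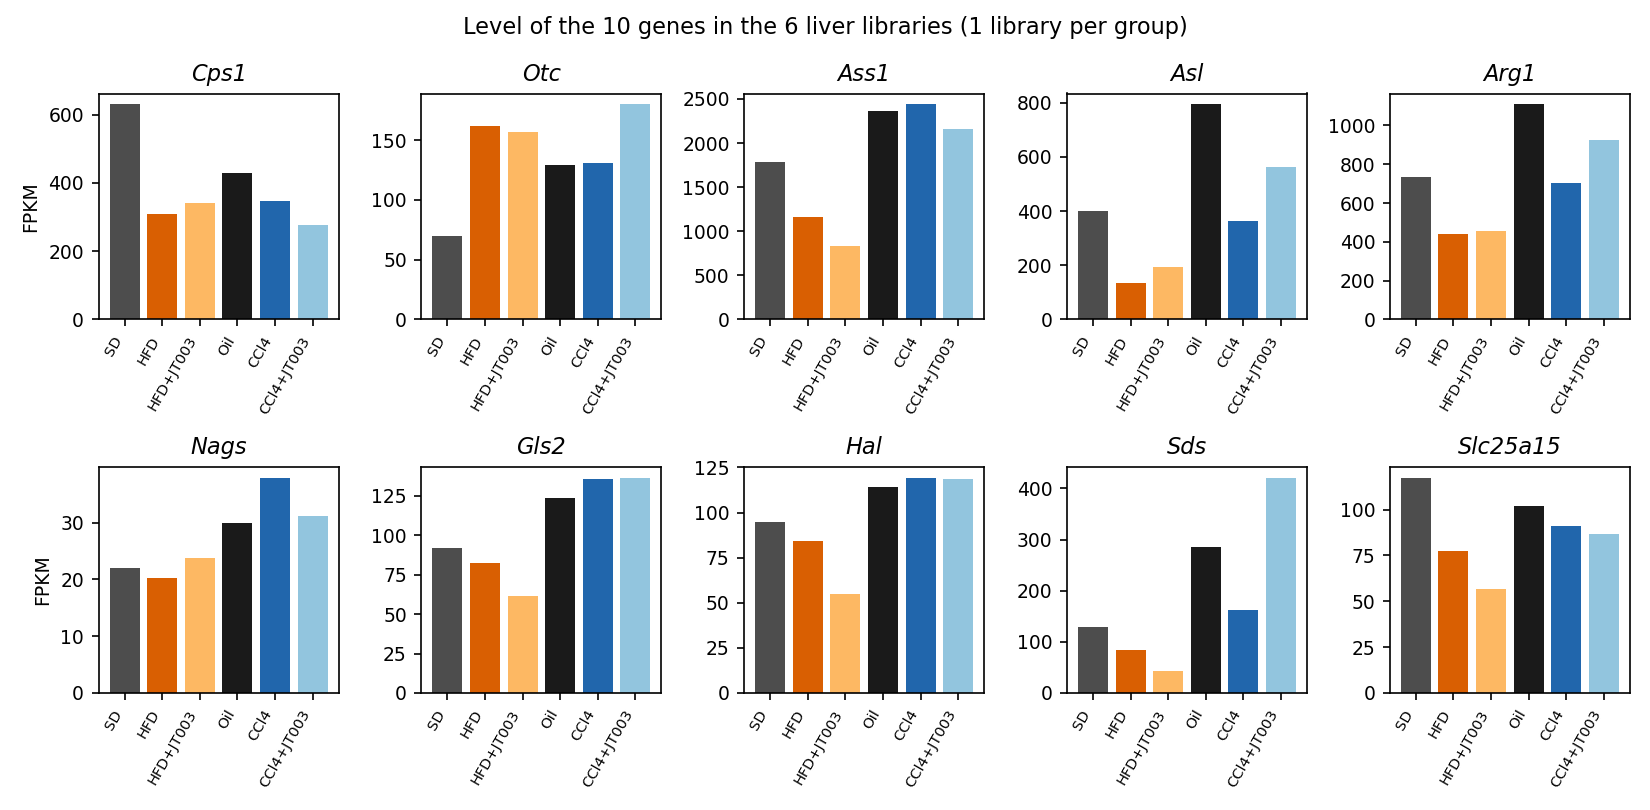
Level of each of the 10 genes in FPKM (vertical axis, from 0, a separate scale for each gene) in the 6 libraries, 1 bar per library with no error bar because each group has 1 library. Otc is lowest in SD (70.02 FPKM), whereas Sds is lowest in HFD+JT003 (42.59) and highest in CCl4+JT003 (420.87).

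To see how the high fat diet liver differed from its control, HFD was compared with SD. In HFD 6 of the 10 genes were called lower (Cps1, Ass1, Asl, Arg1, Sds and Slc25a15) and 1, Otc, was called higher. Of all 13335 genes measured (at least 10 reads in 1 of the libraries compared), 8.86% were called lower and 10.9% higher. The median log2 ratio of the 10 genes was -0.73, against 0.0 for all measured genes. At 2-fold, Cps1 and Asl remained lower and Otc higher, with 3.95% of all genes lower and 5.44% higher.

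Cps1, carbamoyl phosphate synthetase, commits mitochondrial ammonia to the cycle. Its level was 630.31 FPKM in SD, 308.33 in HFD and 340.32 in HFD+JT003, and 427.82 in Oil, 345.93 in CCl4 and 275.49 in CCl4+JT003. SD was thus the highest of the 6 libraries, and both HFD livers lay below Oil. The log2 ratio of HFD over SD was -1.15 (95% interval -1.17 to -1.14), a 2.23-fold lower level.

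Otc, ornithine transcarbamylase, joins carbamoyl phosphate to ornithine to make citrulline and is the next enzyme after Cps1. Its level was 70.02 FPKM in SD, 162.2 in HFD and 156.82 in HFD+JT003, and 129.35 in Oil, 130.59 in CCl4 and 180.05 in CCl4+JT003. The SD library alone was low, and the 5 others lay within 129.35 to 180.05 FPKM. Otc was 2.13-fold higher in HFD than in SD, a log2 ratio of 1.09 (1.03 to 1.15), opposite to its partner Cps1. The ratio of Cps1 to Otc, in FPKM, was 9.0 in SD and 1.9 in HFD. In the other libraries it was 2.17 (HFD+JT003), 3.31 (Oil), 2.65 (CCl4) and 1.53 (CCl4+JT003), so the SD library stood apart from the 5 others. Car5a, the mitochondrial carbonic anhydrase that supplies Cps1 with bicarbonate, was also lowest in SD, with 231 reads against 640 to 1206 in the other libraries; it was chosen after its values were seen. Since Otc and Ass1 moved in opposite directions between SD and HFD, the bases just before their gene starts are shown, from RefSeq on GRCm38.p6, with the motif matches given below in capitals.
Otc, chrX:10252145-10252304, + strand: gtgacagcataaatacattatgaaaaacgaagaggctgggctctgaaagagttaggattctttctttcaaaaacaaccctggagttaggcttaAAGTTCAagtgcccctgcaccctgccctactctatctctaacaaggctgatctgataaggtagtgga
Ass1, chr2:31470110-31470269, + strand: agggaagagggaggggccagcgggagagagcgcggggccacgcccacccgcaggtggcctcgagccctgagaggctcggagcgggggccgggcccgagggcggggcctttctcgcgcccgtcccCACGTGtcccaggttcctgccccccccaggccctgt

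The RefSeq table held promoters for 5 of the 10 genes (Otc, Ass1, Nags, Hal and Slc25a15), with 2 start sites for Slc25a15. Over the 250 bases before the start, 43.6% of the Otc letters and 75.6% of the Ass1 letters were G or C, against a median of 52.4% over all 32851 promoters, and CG pairs numbered 1 in Otc and 23 in Ass1 against a median of 6. Both strands were searched for 5 short motifs. An HNF4-type motif, AAGTNCA, which 11.6% of all promoters hold, was found in Otc at 67 to 61 bases before the start. The E-box CACGTG, in 6.02% of all promoters, was found in Ass1 at 36 to 31 bases before the start and in 1 of the Slc25a15 promoters. A C/EBP-type motif, TTGCNNAA, in 9.56% of all promoters, was found in Hal. No match was found for the CRE core TGACG (17.8% of all promoters) or the glucocorticoid receptor motif TGTTCT (16.1%). No match overlapped another motif. These are descriptions of letters, and binding was not measured.

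Ass1 and Asl make argininosuccinate and split it into arginine and fumarate. Ass1 stood at 1785.22 FPKM in SD, 1166.98 in HFD and 836.72 in HFD+JT003, and at 2358.71 in Oil, 2439.56 in CCl4 and 2154.64 in CCl4+JT003. Asl was 399.28 FPKM in SD, 133.45 in HFD and 193.27 in HFD+JT003, and 794.69 in Oil, 362.15 in CCl4 and 562.85 in CCl4+JT003. For both genes the 2 HFD-fed livers were the lowest of the 6. Asl had the largest difference of the 10 genes between HFD and SD, 3.26-fold lower (log2 ratio -1.7, -1.75 to -1.65), and Ass1 was 1.67-fold lower (-0.74, -0.75 to -0.72). The FPKM ratio of Ass1 to Asl was 8.74 in HFD, against 4.47 in SD and 4.33 in HFD+JT003.

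Arg1 cleaves arginine to urea and ornithine and closes the cycle. Its level was 734.43 FPKM in SD, 437.99 in HFD and 453.61 in HFD+JT003, and 1108.67 in Oil, 701.25 in CCl4 and 925.45 in CCl4+JT003. Both HFD livers were the lowest again, and Arg1 was 1.83-fold lower in HFD than in SD (log2 ratio -0.87, -0.9 to -0.84). Slc25a15, the exchanger of ornithine and citrulline across the inner mitochondrial membrane, fell from 117.35 FPKM in SD to 77.18 in HFD (log2 ratio -0.73, -0.78 to -0.68), with 56.69 in HFD+JT003, 101.87 in Oil, 91.21 in CCl4 and 86.81 in CCl4+JT003. Nags was not called, at 22.06 FPKM in SD, 20.22 in HFD and 23.73 in HFD+JT003, and 29.99 in Oil, 37.9 in CCl4 and 31.11 in CCl4+JT003. Its log2 ratio of HFD over SD was -0.25 (-0.38 to -0.11), the widest interval of the 10 genes, since it had the fewest reads.

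Among the enzymes that release ammonia, Sds, serine dehydratase, was called lower in HFD, and Gls2 and Hal were not. Sds was 128.74 FPKM in SD and 84.73 in HFD (log2 ratio -0.73, -0.81 to -0.64). Gls2, liver glutaminase, was 91.91 FPKM in SD and 82.69 in HFD (-0.27, -0.34 to -0.21), and Hal, histidine ammonia lyase, was 94.81 and 84.37 FPKM (-0.29, -0.35 to -0.23). By role, 5 of the 7 genes of the cycle and its mitochondrial partners were called lower, and 1 of the 3 that release ammonia.

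**Figure D2:**
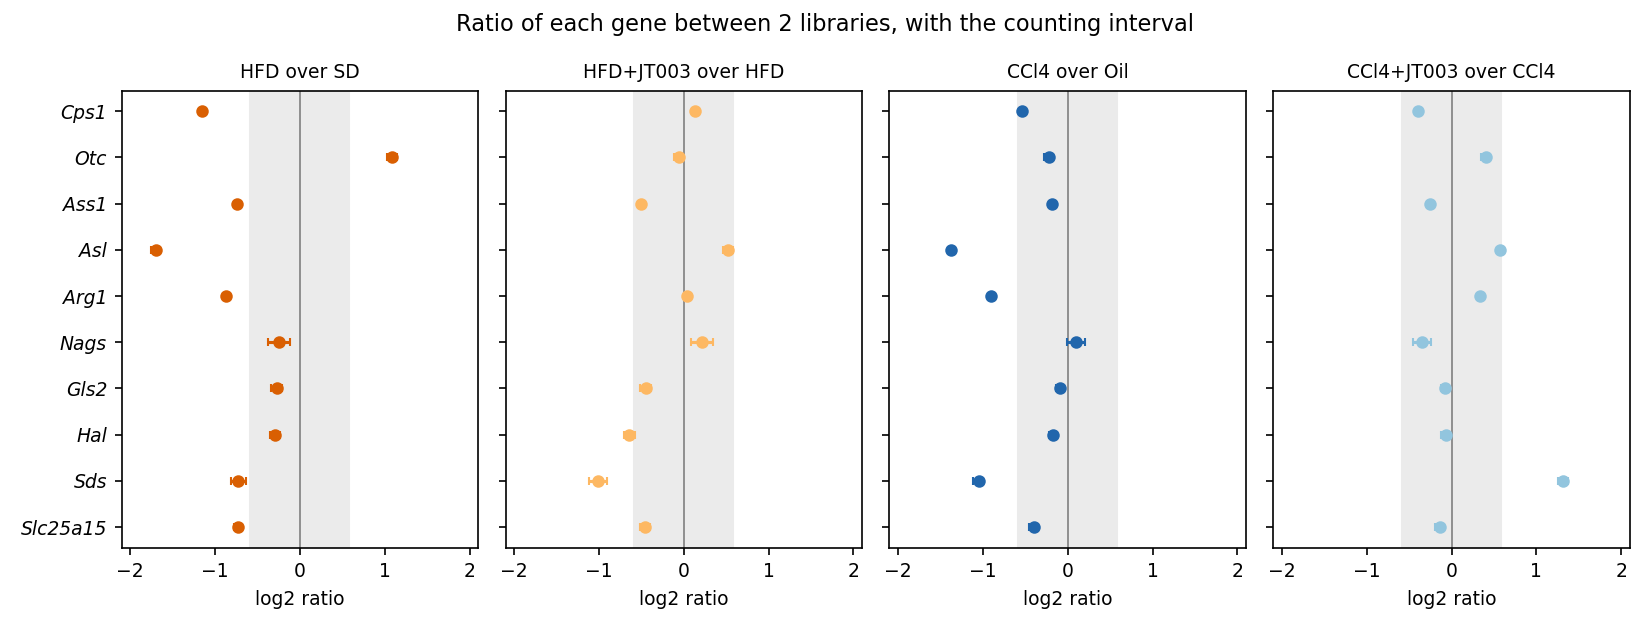
Log2 ratio (horizontal axis) of each of the 10 genes in the 4 comparisons, with the 95% counting interval as a bar and the range below 1.5-fold shaded. Asl lies furthest to the left in HFD over SD (-1.7) and in CCl4 over Oil (-1.37), and Sds lies at -1.01 for JT003 in the diet model but at 1.31 in the CCl4 model.

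JT003 was then compared within the diet model, HFD+JT003 over HFD. Only 2 of the 10 genes were called, Hal and Sds, both lower, and none was called higher. Over 13453 measured genes, 5.24% were called lower and 5.19% higher. The median log2 ratio was -0.26, and 6 of the genes were below 0 and 4 above it. Sds was 42.59 FPKM in HFD+JT003, 2.01-fold lower than in HFD (log2 ratio -1.01, -1.12 to -0.9), and was the 1 gene also called at 2-fold, where 1.99% of all genes were lower and 2.07% higher. That larger call was lost with total reads (-0.99) and with the hepatocyte marker scaling (-0.92), while the 1.5-fold call held. Hal was 54.8 FPKM in HFD+JT003 (-0.64, -0.7 to -0.57), a call that was lost when the median of the hepatocyte markers was held equal between the libraries (-0.55).

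None of the 7 genes of the cycle and its mitochondrial partners was called with JT003 in the diet model. Ass1 (log2 ratio -0.5, -0.52 to -0.47) and Slc25a15 (-0.46, -0.52 to -0.4) lay below 0, as did Gls2 (-0.45, -0.52 to -0.38). Asl lay above 0 (0.52, 0.46 to 0.58) and was called higher with the hepatocyte marker scaling (0.61), and Cps1 (0.13, 0.11 to 0.15), Arg1 (0.04, 0.0 to 0.07) and Otc (-0.06, -0.11 to -0.02) were nearest to no change, the last turning to 0.02 with the hepatocyte marker scaling. Nags was at 0.22 (0.08 to 0.35). Against the SD control, which both comparisons share, 8 genes were called lower in HFD+JT003 and 1 higher, with 10.6% of all genes called lower and 12.2% higher. Gls2 and Hal were the genes called there but not in HFD over SD. The median log2 ratio against SD was -0.98 in HFD+JT003, next to -0.73 in HFD. The call of Gls2 against SD (-0.72) was lost when libraries were scaled to total reads (-0.58) or to the hepatocyte markers (-0.55). It was also lost on log2 FPKM + 1 and log2 FPKM + 0.1 (both -0.58).

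To see how the CCl4 liver differed from its own control, CCl4 was compared with Oil. Asl, Arg1 and Sds were called lower, 3 of the 10 genes, and none was called higher. Of 13602 measured genes, 10.5% were called lower and 14.4% higher. Asl was 2.59-fold lower (log2 ratio -1.37, -1.4 to -1.34), Sds, at 162.03 against 285.27 FPKM in Oil, was 2.08-fold lower (-1.05, -1.11 to -1.0), and Arg1 was 1.86-fold lower (-0.9, -0.92 to -0.87). At 2-fold Asl and Sds remained, with 4.59% of all genes lower and 8.08% higher, and Sds dropped out there with total reads (-0.82). The median log2 ratio was -0.31, and became -0.08 when libraries were scaled to total reads, which raised the median of all genes to 0.24.

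The other 7 genes were not called in CCl4 over Oil. Cps1 was closest to it, at -0.54 (-0.56 to -0.53), and passed with the hepatocyte marker scaling (-0.7). Slc25a15 was at -0.4 (-0.45 to -0.35) and Nags at 0.1 (-0.01 to 0.21). Otc (-0.22), Ass1 (-0.19), Hal (-0.17) and Gls2 (-0.09) were below 0 here and above 0 with total reads (0.01, 0.04, 0.06 and 0.14), so no direction is given for them. Gls2 was 123.9 FPKM in Oil, 135.89 in CCl4 and 136.55 in CCl4+JT003, and Hal 113.98, 119.25 and 118.77 FPKM. In FPKM the CCl4 and Oil values of these 4 genes were thus close. Genes called lower in both models were Asl, Arg1 and Sds. The share of all measured genes called lower in both was not taken, so this overlap has no background beside it.

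For JT003 within the CCl4 model, CCl4+JT003 over CCl4, 1 of the 10 genes was called. Sds rose from 162.03 to 420.87 FPKM, 2.48-fold (log2 ratio 1.31, 1.26 to 1.37), and was also called at 2-fold. None of the 10 genes was called lower. In this comparison 9.71% of 13785 measured genes were called lower and 10.5% higher, or 4.08% and 4.25% at 2-fold. The 1.5-fold calls among the 10 genes were thus near these shares or below them. Asl was next, at 0.57 (0.54 to 0.6), just inside 1.5-fold. It passed with total reads (0.64), the hepatocyte marker scaling (0.77), log2 FPKM + 1 (0.63) and log2 FPKM + 0.1 (0.64). With the pooled CCl4 counts described below Asl passed as well (0.84, or 1.0 without the CCl4 library). Otc lay at 0.4 (0.35 to 0.44), passing with the hepatocyte marker scaling (0.6), and Arg1 at 0.33 (0.31 to 0.36), whereas Cps1 lay at -0.39 (-0.42 to -0.37) and Nags at -0.35 (-0.46 to -0.24). The remaining genes lay close to no change, with Ass1 at -0.25, Slc25a15 at -0.14, Gls2 at -0.08 and Hal at -0.07, and the last 3 lay above 0 with the hepatocyte marker scaling. The median log2 ratio was -0.07, and it turned to 0.13 with the hepatocyte marker scaling.

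Against Oil, CCl4+JT003 had 2 genes called lower, Cps1 (-0.94, -0.96 to -0.92) and Asl (-0.8, -0.83 to -0.77), and none higher, beside 7.20% of all genes lower and 12.0% higher. With total reads the Asl call was lost (-0.5). The other 8 genes lay between -0.57 (Arg1) and 0.26 (Sds). Cps1 was thus 1.92-fold below Oil in CCl4+JT003 and 1.46-fold below it in CCl4.

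Sds had the widest range of the 10 genes, 9.88-fold between HFD+JT003 and CCl4+JT003 in FPKM. Its ratio to Gls2 in FPKM was 1.4 in SD, 1.02 in HFD and 0.694 in HFD+JT003, and 2.3 in Oil, 1.19 in CCl4 and 3.08 in CCl4+JT003. The sign of the JT003 ratio of Sds was opposite in the diet and CCl4 models, and the difference between them was not tested. Asl varied 5.95-fold in FPKM, and Nags least, 1.87-fold.

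**Figure D3:**
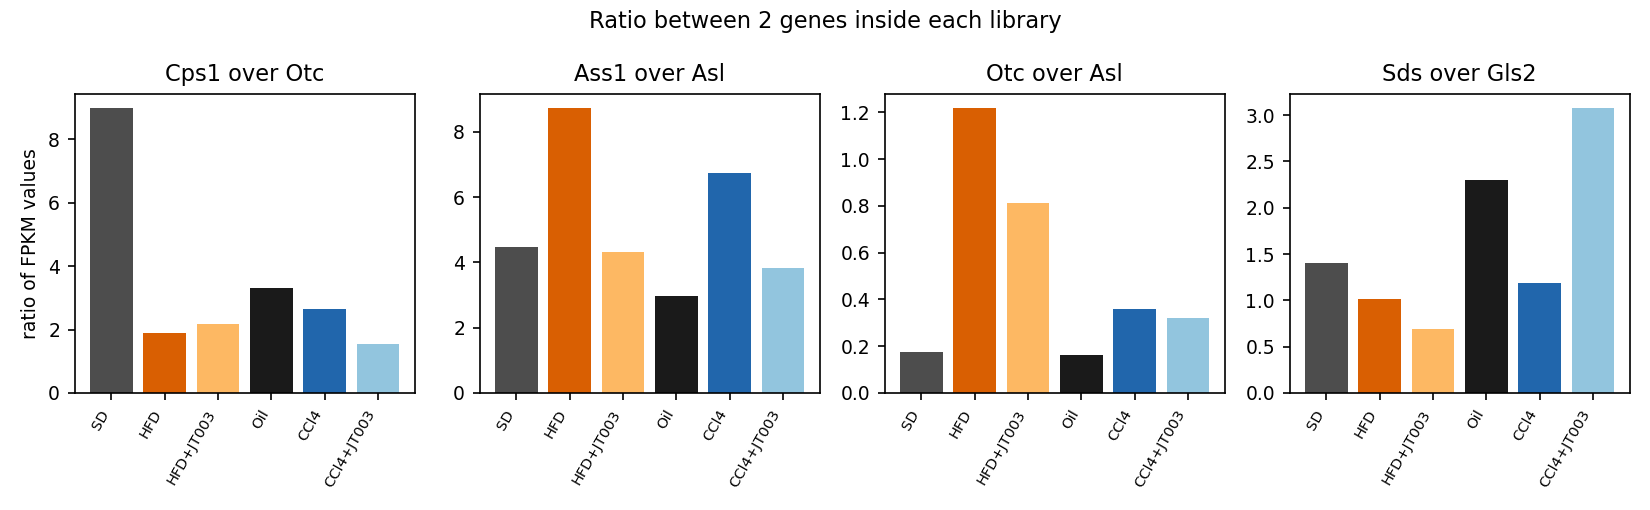
Ratio of FPKM values between 2 genes of the same library (vertical axes, from 0), 1 bar per library. Cps1 over Otc is 9.0 in SD and at most 3.31 elsewhere, and Ass1 over Asl is highest in HFD (8.74) and CCl4 (6.74).

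The control libraries bear on the size of these differences. With TMM factors over all 6 libraries, Oil over SD had a log2 ratio of 1.25 for Sds (1.18 to 1.31), 1.09 for Asl (1.06 to 1.12) and 0.98 for Otc (0.92 to 1.05). It was 0.69 for Arg1, 0.5 for Ass1 and -0.46 for Cps1. The livers without HFD, CCl4 or JT003 thus differed from each other by as much as several of the differences called within a model. The SD mice were on their diet for 16 weeks and the Oil mice were injected for 6 weeks, and these differences cannot be told apart here from variation between animals.

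A pooled CCl4 column of the authors offered another view of the CCl4 liver. Its counts summed to 2.97 times those of the CCl4 library, and the libraries it holds are not named. After removal of the CCl4 library's own reads, the remainder over the library had log2 ratios from -0.59 (Hal) to 0.4 (Sds) for the 10 genes, with a median of 0.05. Asl was at -0.42, Gls2 at -0.36 and Ass1 at -0.32, with Cps1 at 0.28 and Slc25a15 at 0.23. Hal was the 1 gene of the 10 that passed 1.5-fold, and 11.5% of 14545 genes did so in either direction. With the remainder in place of the CCl4 library, Sds was still called higher in CCl4+JT003, at 0.92 rather than 1.31 and so no longer at 2-fold. Asl was called higher as well (1.0) and Cps1 lower (-0.66). In the remainder over Oil, Asl (-1.81), Arg1 (-0.7) and Sds (-0.67) were again called lower, and Hal was too (-0.78). The share of all genes called was not taken for the remainder against Oil or CCl4+JT003. These calls thus have no background beside them.

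Of the other genes of nitrogen metabolism, 37 enzymes of amino acid breakdown outside the 10 were measured. In HFD over SD, 12 were called lower and 4 higher, with a median log2 ratio of -0.07, and in CCl4 over Oil 14 were lower and 2 higher, with a median of -0.41. With JT003, 5 were lower and 1 higher in the diet model (median -0.06), and 4 were lower and none higher in the CCl4 model (median 0.03). Of all measured genes, 5.24% were lower and 5.19% higher with JT003 in the diet model, and 9.71% and 10.5% in the CCl4 model. The shares of all genes given above for each comparison are also the background for the lists below. Mat1a, which makes S-adenosylmethionine, went from 165322 reads in SD to 53489 in HFD and from 151597 in Oil to 60206 in CCl4. Bhmt, which remethylates homocysteine, had 56028 reads in HFD and 29117 in HFD+JT003, and 122305 in Oil against 45448 in CCl4. Sdsl, a relative of Sds, had 652 reads in SD and 108 in HFD, so its log2 ratio was -2.66.

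Partners of the cycle (transporters, transaminases, and enzymes of glutamine, proline and ornithine) numbered 28, of which 25 were measured in HFD over SD, with 4 called higher and 6 lower. In CCl4 over Oil, 2 were higher and 8 lower, with a median of -0.38. The 3 with the largest fall are also pericentral markers. Slc1a2, a glutamate transporter, had 3513 reads in Oil, 6 in CCl4 and 42 in CCl4+JT003. Oat, ornithine aminotransferase, had 31746, 1413 and 1224 reads, and Glul, glutamine synthetase, had 14862, 1962 and 2594. These 3, named for having the largest differences of their list, fell by 9.03, 4.78 and 3.21 on the log2 scale in CCl4 over Oil. The largest fall of a urea cycle gene was the 1.37 of Asl. Of all 16 pericentral markers, 11 were called lower and 4 higher there, with a median of -0.7. In HFD, Glul (17991 reads in SD and 25793 in HFD) and Slc1a2 (3150 and 4544) were not called, and Oat (30312 and 14297) was called lower.

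Pericentral markers gave 8 of 16 higher and 2 lower in HFD over SD (median 0.53), and 4 higher and 11 lower in CCl4 over Oil (median -0.7). Their summed level was 5484.3 FPKM in SD, 7617.6 in HFD, 10622.8 in HFD+JT003, 6833.9 in Oil, 2614.0 in CCl4 and 4060.4 in CCl4+JT003. Most of it was Cyp2e1, a cytochrome P450 looked up after the sums were seen, at 3603.01, 5028.0, 7415.61, 4420.45, 1102.99 and 2279.79 FPKM in the same order, except in CCl4, where Cyp2e1 made up less than the rest of the list together. Of the 14 other periportal markers, 4 were higher and 5 lower in HFD over SD (median -0.39), and 5 higher and 3 lower in CCl4 over Oil (median 0.18), so periportal genes outside the 10 did not move in a single direction. Their sum, 7710.4 FPKM in SD and 3159.4 in HFD, included Apoa4, an apolipoprotein, which had 142917 reads in SD and 17654 in HFD. Aldh1b1 (337 reads in Oil, 3953 in CCl4) and Hsd17b6 (557 and 5179) had the largest differences upward. Of 16 regulators of these genes, Crem alone was called in HFD over SD, lower (541 reads in SD, 319 in HFD), and Cebpa (9640 reads in Oil, 6857 in CCl4) and Gcgr, the glucagon receptor (6110 and 4417), were among 3 called lower in CCl4 over Oil.

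**Figure D4:**
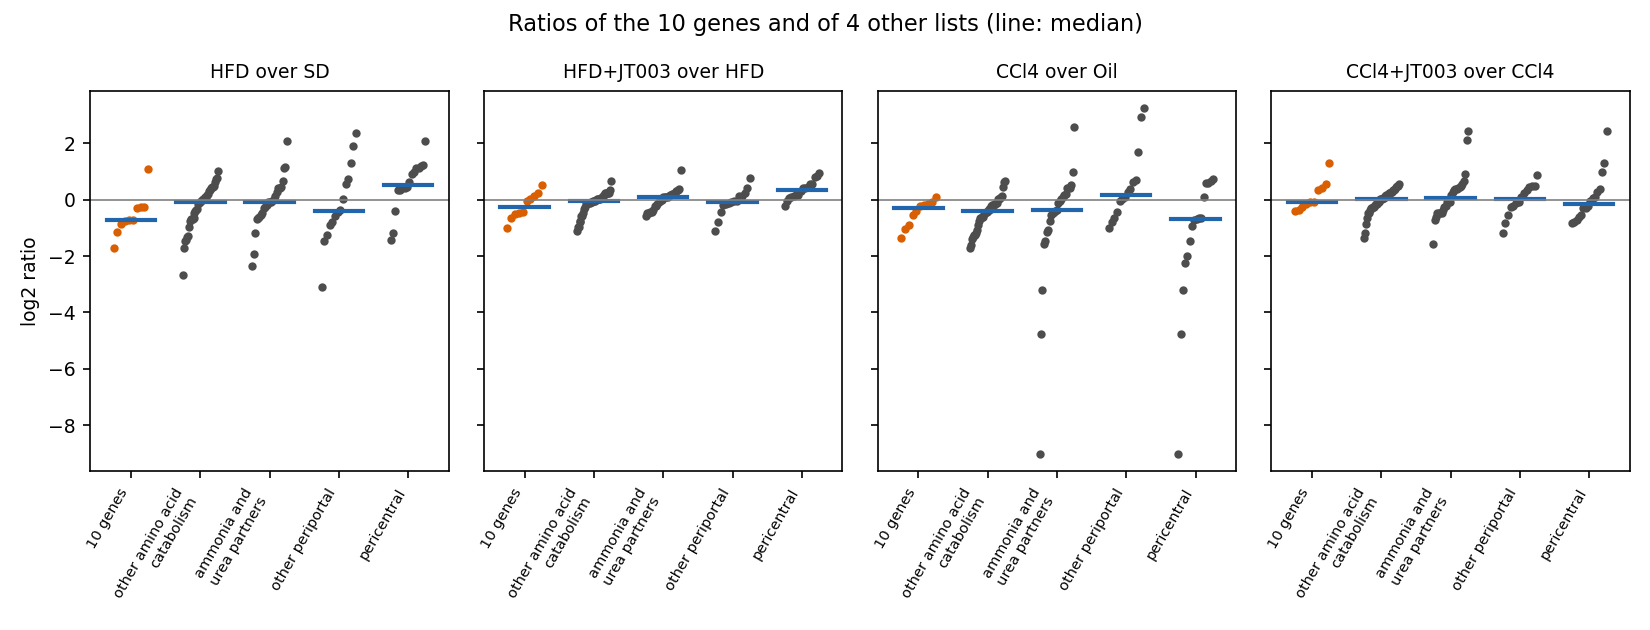
Log2 ratio (vertical axis) of each measured gene, as a point, for the 10 genes and 4 other lists in the 4 comparisons, with the median as a line. The median of the 10 genes is -0.73 in HFD over SD, while that of the pericentral markers is 0.53; in CCl4 over Oil the pericentral median is -0.7.

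Cell type markers also moved with the CCl4 libraries. In summed FPKM, 7 bile duct markers gave 27.0 in Oil, 106.3 in CCl4 and 107.7 in CCl4+JT003, 7 macrophage markers gave 26.1, 69.5 and 133.3, and 8 stellate and myofibroblast markers gave 16.7, 70.4 and 37.6. In CCl4 over Oil, 6 of the 7 bile duct markers and 6 of the 7 macrophage markers were called higher. Of the 8 stellate markers, 5 were called higher there and 1 lower. Acta2, looked up after the sums were seen, had 165 reads in Oil and 108 in CCl4. Much of the stellate sum in CCl4 was Col1a1, Col3a1 and Col1a2, at 20.41, 19.46 and 19.22 FPKM. Spp1 made up most of the bile duct sum in this model, at 21.04 FPKM in Oil, 90.54 in CCl4 and 95.07 in CCl4+JT003. In CCl4+JT003 over CCl4, 0 bile duct markers were called higher and 2 lower (median -0.33), and 1 stellate marker was higher and 5 lower. In the same comparison 3 macrophage markers were higher and 1 lower, with Marco at 4.01 and 32.45 FPKM and Cd68 at 11.69 and 8.98. The 7 proliferation markers gave 2.76 in Oil, 101.5 in CCl4 and 7.68 in CCl4+JT003. None of these 29 markers was at 0 reads in the 3 libraries. In the diet model the stellate sum was 17.8 FPKM in SD, 44.9 in HFD and 26.5 in HFD+JT003, the macrophage sum 119.8, 127.7 and 179.8, and the bile duct sum 16.5, 26.5 and 16.9, with Cldn4 at 0 reads in both HFD libraries. Spp1 made up most of the bile duct sum, at 13.83, 23.77 and 13.07 FPKM, and was the 1 of 6 measured bile duct markers called higher in HFD over SD, where their median log2 ratio was -0.06. Endothelial markers, 6 in all, gave 40.7 FPKM in Oil, 25.3 in CCl4 and 40.0 in CCl4+JT003, and 63.6, 68.1 and 80.7 in SD, HFD and HFD+JT003. The part of these cell types in the differences of the 10 genes was not tested.

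Likeness of pattern was described over the 6 libraries, of which those of a model share a control. With the mean of Cps1, Otc, Ass1, Asl and Arg1, Pearson's r was 1.0 for Arg1, 0.98 for Asl and 0.9 for Ass1, but 0.45 for Cps1 and -0.21 for Otc, all of which are part of that mean. Among the other members it ran from 0.74 (Nags) to 0.86 (Gls2). Of 8316 other genes with at least 100 reads in every library, the 5 most alike were Ccs (r = 0.997), Ftl1 (0.996), Tfpt (0.995), Ppif (0.995) and Psma2 (0.994). These were picked as the highest of 8316 values over only 6 libraries, and no r was tested. Nor does r measure the size of a difference, as Ppif stayed within 651 to 824 reads. Ftl1, ferritin light chain, had 89202 reads in SD, 60872 in HFD and 109636 in Oil, and has near-identical copies in the mouse genome that could share reads. Relatives that could share reads with Arg1, Slc25a15 and Sds were lower than these genes: Arg2 had at most 8 reads in any library and Slc25a2 at most 9, and Sds exceeded Sdsl 4.83-fold or more in FPKM in each library.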

How the data were processed

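Liver libraries were sequenced on a BGISEQ-500. The submitters' processing notes name HISAT, Bowtie2, RSEM and the build mm9, with no role or order. Each deposited library table gives the expected count of a gene, which is the authors' unnormalized read estimate, and the deposited FPKM, which they scaled to transcript length and library size. The authors' comparison tables hold their fold changes and test values, which were not used, and expression columns of which 7 were not used here. A further column, a pooled CCl4 expected count deposited by the authors, was used.

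Expected counts were rounded. TMM factors (edgeR 4.0.16, R 4.3.3) were taken over the 3 libraries of a model. Log2 ratios used a prior count of 2, and 95% Clopper-Pearson intervals (scipy 1.17.1) of the ratio cover counting error only. A measured gene had at least 10 reads in 1 of the libraries compared. Calls needed 1.5-fold and an interval excluding a ratio of 1, and the code was tested on simulated data. DESeq2 1.42.0 gave alternative size factors. Python 3.11.15, numpy 2.4.6, pandas 2.3.3 and matplotlib 3.10.9 were used.

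Every member was named. From each other list, up to 3 genes with the largest absolute log2 ratio in a main comparison at 100 reads or more were eligible, with the relatives Arg2, Sdsl and Slc25a2 and the 5 genes most like the mean of the cycle enzymes. Pearson's r used log2 CPM with TMM over all 6 libraries. An item of this rule is not reported here. The members and lists were chosen with earlier results of these data known. Promoters came from RefSeq tables of GRCm38.p6, while the expression files give no coordinates.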

Additional observations from a re-analysis of the deposited data

Results flagged for a closer look

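Sds went in opposite directions with JT003 in the 2 models. It had 1926 reads in HFD and 973 in HFD+JT003, and 3760 in CCl4 and 9397 in CCl4+JT003, and the log2 ratio in the CCl4 model exceeded that in the diet model by 2.32. It stood out because the library of each treated group moved to a different side of its comparator beyond 1.5-fold. Of all measured genes, 5.24% were called lower in HFD+JT003 over HFD and 10.5% higher in CCl4+JT003 over CCl4. The share of all genes called in opposite directions was not taken. With the remainder of the pooled CCl4 counts, the Sds log2 ratio in the CCl4 model was 0.92 rather than 1.31. The difference between the models was not tested, since each group has 1 library.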

How the results depend on the processing

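With 1 library per group no replicate was left out, and counting intervals do not cover the variation between animals. No paired analysis was possible because each group has 1 library and the results come from no test. DESeq2 size factors and a prior count of 0.5 changed no count of calls among the 10 genes, and every member value kept its sign with them. The median log2 ratio with total reads was -0.6 in HFD over SD, -0.08 in CCl4 over Oil, -0.01 in CCl4+JT003 over CCl4, -0.84 in HFD+JT003 over SD and -0.04 in CCl4+JT003 over Oil. On log2 FPKM + 1 these were -0.6, -0.07, 0.0, -0.83 and -0.04, and on log2 FPKM + 0.1 they were -0.6, -0.07, 0.0, -0.84 and -0.04, with the value of CCl4+JT003 over CCl4 just above 0 on both. With the hepatocyte marker scaling the medians were -0.64 in HFD over SD, -0.17 in HFD+JT003 over HFD, -0.47 in CCl4 over Oil, 0.13 in CCl4+JT003 over CCl4, -0.8 in HFD+JT003 over SD and -0.3 in CCl4+JT003 over Oil. The pooled CCl4 counts, and those less the CCl4 library, gave -0.38 and -0.5 in CCl4 over Oil, and 0.17 and 0.21 in CCl4+JT003 over CCl4. So the median of CCl4+JT003 over CCl4, -0.07 as reported, changed sign between these settings, and the cause was not tested.

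Genes called higher in CCl4+JT003 over CCl4 were 2 with total reads, with either FPKM scale and with either pooled count, and 3 with the hepatocyte markers, against 1 as reported, and 1 was called lower with the pooled counts less the library, against 0. Of all genes, 12.83% were then higher with total reads and 17.86% with the hepatocyte markers. On log2 FPKM + 1 and log2 FPKM + 0.1 these shares were 5.77% and 14.14%. No such share was taken with the pooled counts. The hepatocyte markers gave 1 lower and 1 higher in HFD+JT003 over HFD, against 2 and 0, with 4.0% of all genes lower and 7.04% higher. In CCl4+JT003 over Oil, total reads and both FPKM scales gave 1 lower, against 2. The shares of all genes lower were 3.23% with total reads, 1.99% on log2 FPKM + 1 and 3.84% on log2 FPKM + 0.1. In HFD+JT003 over SD, total reads, the hepatocyte markers and both FPKM scales gave 7 lower, against 8. The shares of all genes lower were 7.16%, 6.53%, 4.91% (log2 FPKM + 1) and 7.8% (log2 FPKM + 0.1). At 2-fold, genes called lower were 2 in HFD over SD, 1 in HFD+JT003 over HFD, 5 in HFD+JT003 over SD and 0 in CCl4+JT003 over Oil. The shares of all genes called lower at 2-fold were 3.95%, 1.99%, 4.39% and 3.15% in the same order. The causes were not tested.

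The scaling also moved the background. With total reads all measured genes had a median log2 ratio of 0.13 in HFD over SD, 0.24 in CCl4 over Oil and 0.32 in CCl4+JT003 over Oil, and the share of calls that were higher went from 55.1% to 69.9%, from 58.0% to 80.4% and from 62.5% to 88.1%. In CCl4 over Oil, 5.65% of all genes were then lower and 23.23% higher. The hepatocyte markers gave a share of 39.9% there, and 75.2% in CCl4+JT003 over CCl4 (51.9% as reported), with 5.9% of genes lower and 17.86% higher, and 63.8% in HFD+JT003 over HFD (49.8% as reported).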
